A study of Homo sapiens with 64 samples.

Results

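The binding of γ-tubulin to chromatin was followed in the established human osteosarcoma line U2OS through the 4 lists of ChIP-seq peaks made with the γ-tubulin antibody. The lists hold 453 of the 2442 peaks in the 24 lists of the series, and they were taken by antibody and cell line, a rule that uses no peak value. The cells of the first list were asynchronous, and those of the others were harvested 3, 7 or 9 h after release from a double thymidine block, which holds cells in early S phase. By the synchrony scheme, cells are in S phase at 3 h, between S and G2/M at 7 h and in G2/M at 9 h, which peak lists alone cannot check. All 4 groups are plain U2OS cells with no knockdown, and in each group 2 labelled samples share a single list. The lists therefore carry no replicate error, no comparison could be tested, and the intervals given are exact 95% intervals that cover counting error only. The number of reads is unknown, and a difference in depth between the lists could change how many peaks each holds.

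γ-Tubulin is best known as the protein that nucleates microtubules at centrosomes, where it acts in ring-shaped complexes. A further pool of the protein lies in the nucleus and has been found on chromatin. The other antibodies of the series, used here only as background, recognise PCNA, the sliding clamp of replicative polymerases, Mcm5, a subunit of the replicative helicase, and FoxM1, a transcription factor of the late cell cycle. Pericentromeres, where much of the signal below lies, are built largely of satellite repeats. The reference genome holds only some of the copies of these repeats, so a peak there stands for the sequence placed at that position and not for a single copy in the cell. How reads from repeats were placed was not stated, and its part in the results was not tested.

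Asynchronous cells gave 102 γ-tubulin peaks (interval 83.2 to 124), and cells at 3 h gave 123 (102 to 147). At 7 h the list held 75 peaks (59.0 to 94.0), the shortest of the 4, and at 9 h it held 153 (130 to 179), the longest. The intervals at 7 h and 9 h did not overlap, but without the pericentromeres of chromosomes 2 and 16 the lists held 72 peaks (56.3 to 90.7) and 109 (89.5 to 131), whose intervals did. Peaks often lay side by side, and joining those within 1000 bp of each other left 47, 68, 39 and 80 in the same order, so the order of the times stayed as it was. Each peak carries a whole-number score of unstated meaning, and its highest value went the same way, at 353 for asynchronous cells, then 721 at 3 h, only 297 at 7 h and lastly 896 at 9 h. The median scores were closer, at 92, 92, 94 and 120. Because the scale of the score may differ between lists, scores were compared as ranks, the percentile of a peak in its own list with 100 for the highest.

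Most γ-tubulin peaks lay in pericentromeres, meaning within 2 Mb of the assembly's centromere gap or of a heterochromatin gap next to it. Of the 453 peaks, 264 (58.3%) were pericentromeric and 95 (21.0%) lay on unplaced or unlocalised scaffolds. A further 78 (17.2%) lay on chromosome arms and 16 (3.53%) on the mitochondrial genome. The pericentromeric share was 46.1% in asynchronous cells (36.2 to 56.2), 57.7% at 3 h (48.5 to 66.6), 56.0% at 7 h (44.1 to 67.5) and 68.0% at 9 h (59.96 to 75.3). Asynchronous cells and cells at 9 h had intervals that did not overlap, while those at 3 h and 7 h could not be told from each other. Pericentromeres placed within 1 Mb gave 43.1% for asynchronous cells and 66.7% for 9 h, and those within 5 Mb gave 47.1% and 69.9%. No intervals were computed for these. The separation of the intervals was lost in each of 4 other alternatives, which all held fewer peaks. Without the pericentromeres of chromosomes 2 and 16 the shares were 42.7% (32.7 to 53.2) for asynchronous cells and 55.0% (45.2 to 64.6) for 9 h. Among peaks at or above their list's median score they were 63.5% (49.0 to 76.4) and 68.8% (57.3 to 78.9), and 7 h had the highest share, 78.9% (62.7 to 90.4). The 75 highest-scored peaks of each list gave 54.7% (42.7 to 66.2) and 68% (56.2 to 78.3), and joining peaks within 1000 bp gave 53.2% (38.1 to 67.9) and 70% (58.7 to 79.7). Pericentromeric peaks numbered 47, 71, 42 and 104 in the 4 lists, which gave most of the difference in length between the 7 h and 9 h lists. Arm peaks were nearly constant in number, at 22, 20, 16 and 20, but as shares of their lists they were 21.6%, 16.3%, 21.3% and 13.1%. On scaffolds, 7 h had the fewest peaks, 12, against 28 for asynchronous cells and 29 and 26 for 3 h and 9 h. By share 7 h did not stand apart, with 16% (8.55 to 26.3) against 16.99% (11.4 to 23.9) at 9 h. The scaffold shares were 27.5% (19.1 to 37.2) in asynchronous cells and 23.6% (16.4 to 32.1) at 3 h, with intervals that overlapped that of 7 h.

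**Figure D1:**
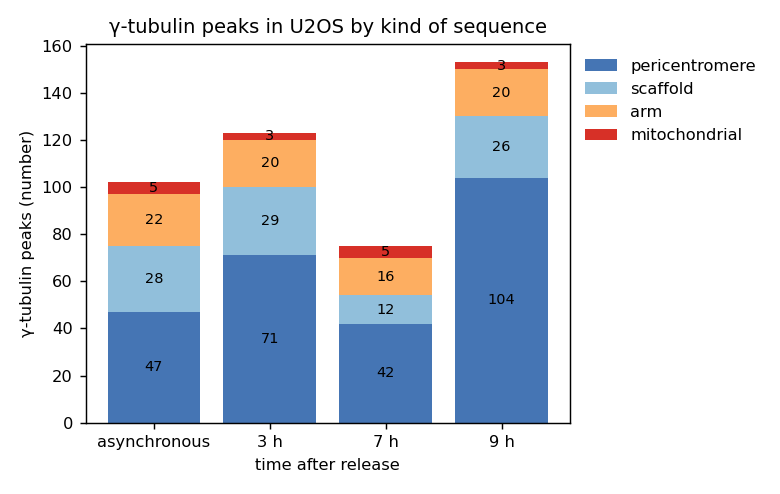
Stacked bars show the number of γ-tubulin peaks on the y axis for asynchronous cells and 3, 7 and 9 h after release, split by kind of sequence. Pericentromeric peaks go from 42 at 7 h to 104 at 9 h, while arm peaks stay between 16 and 22.

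Position by position, the list at 7 h was largely contained in the others. A peak was taken as found at another time when it shared at least 25% of its own length and of the other peak's length. Of the 75 peaks at 7 h, 69 were found in asynchronous cells (92.0%, 83.4 to 97.0), 62 at 3 h (82.7%, 72.2 to 90.4) and 57 at 9 h (76.0%, 64.7 to 85.1). Only 3 of the 75 were found at no other time. Of these, chr5:11452-11660 and chr10:42392240-42392453 lay inside wider peaks of other times. The order of the 3 shares depended on the rule. Overlap by 1 bp placed 98.7% of the 7 h peaks in the 3 h list and 96.0% in the 9 h list. The asynchronous list then held 93.3%, the lowest share. Requiring 50% of both lengths kept the order, from 81.3% for the asynchronous list down to 50.7% for the 9 h list. Looking the other way, 58 of 123 peaks at 3 h were found at 7 h (47.2%, 38.1 to 56.4) and 54 of 153 at 9 h (35.3%, 27.7 to 43.4). In asynchronous cells, 66 of 102 peaks were found at 7 h (64.7%, 54.6 to 73.9), 76 at 3 h (74.5%, 64.9 to 82.6) and 74 at 9 h (72.5%, 62.8 to 80.9). These last 3 intervals overlapped one another.

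Cells at 3 h and 9 h shared most of their positions with each other. Of the peaks at 3 h, 103 of 123 (83.7%, 76.0 to 89.8) were found at 9 h, and 99 of 153 peaks at 9 h (64.7%, 56.6 to 72.3) were found at 3 h. Among the 65 peaks at 3 h that had no partner at 7 h, 48 (73.8%) had one at 9 h. Chromosome 2 held 12 of the 48 and chromosome 16 held 8, most of them in the pericentromeres. These 48 positions were picked by this pattern, so their absence at 7 h and presence at 9 h are no separate result. The 7 h list was also the shortest, and whether binding was lost and regained was not tested. In turn 99 of the 153 peaks at 9 h had no partner at 7 h, and 46 of these had been called at 3 h, whereas 48 were found at no other time.

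Since a longer list can hold more of a shorter one, the same shares were taken over the 75 highest-scored peaks of every list. At equal length the highest shares came in pairs of times, but their intervals overlapped those of the other shares, for instance 72.2 to 90.4 for 3 h peaks at 9 h and 53.5 to 76.0 for 3 h peaks at 7 h. Asynchronous cells shared most with 7 h (74.7%, against 66.7% with 3 h and 62.7% with 9 h), and 7 h shared most with asynchronous cells (78.7%, against 70.7% and 66.7%). The 3 h list shared most with 9 h (82.7%, against 64.0% with asynchronous cells and 65.3% with 7 h), and 9 h shared most with 3 h (80.0%, against 61.3% and 62.7%). The asynchronous and 7 h lists also had the low top scores, and the 3 h and 9 h lists the high ones. Whether enrichment or depth plays a part in this pairing was not tested. The overlap rule was not varied at equal length, and its part in the pairing was not tested there. Over whole lists, overlap by 1 bp found 7 h peaks most often at 3 h (98.7%) and least often in asynchronous cells (93.3%). The 3 h and 9 h lists still shared most with each other, at 87.8% of 3 h peaks and 66.7% of 9 h peaks.

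**Figure D2:**
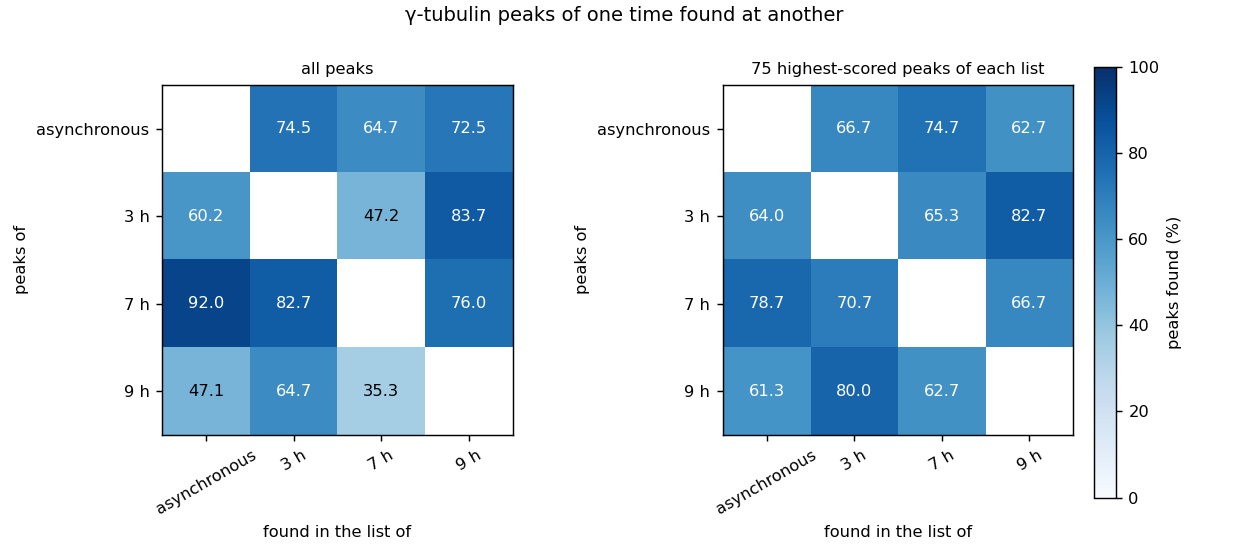
Each cell gives the percentage of γ-tubulin peaks of the time in the row that were found at the time in the column, over all peaks (left) and over the 75 highest-scored peaks of each list (right). At equal list length the highest values are those between 3 h and 9 h (82.7% and 80.0%), followed by those between asynchronous cells and 7 h (74.7% and 78.7%).

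The positions kept differed by kind of sequence. Pericentromeric peaks of 3 h were found at 9 h in 65 of 71 cases (91.5%) and at 7 h in 30 of 71 (42.3%). For arm peaks of 3 h both values were 14 of 20 (70.0%), so the drop at 7 h was not seen on the arms. Scaffold peaks of 3 h were found at 9 h in 21 of 29 cases (72.4%) and at 7 h in 11 (37.9%). Of the 104 pericentromeric peaks at 9 h, 36 (34.6%) were found in asynchronous cells and 62 (59.6%) at 3 h.

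Peaks that recurred had high scores in their own list. Over the 4 lists, 208 of 453 peaks (45.9%) were found at all 3 other times and 74 (16.3%) at none. At 9 h the median score rank was 80.4 for the 51 peaks found at all other times and 23.9 for the 48 found at none. The same medians were 75.2 and 12.2 at 3 h and 64.7 and 28.4 in asynchronous cells. At 7 h they were 56.3 and 39.3, the latter over 3 peaks. A position called at a single time was thus usually among the weaker calls of its list. When each list was cut by score into 3 parts of nearly equal size, every peak of the highest part was found at some other time in asynchronous cells (34 of 34), among those of 3 h (41 of 41) and of 7 h (25 of 25), whereas the 9 h list had 47 of 52 (90.4%). In the lowest part the share was 20 of 51 (39.2%) at 9 h and 24 of 25 (96.0%) at 7 h. The lowest-scored peaks of the 7 h list were therefore mostly positions seen elsewhere, while many of those of the 9 h list were not. These are the shortest and the longest list, and this comparison was not repeated at equal length. The difference cannot be told apart from that in list length.

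**Figure D3:**
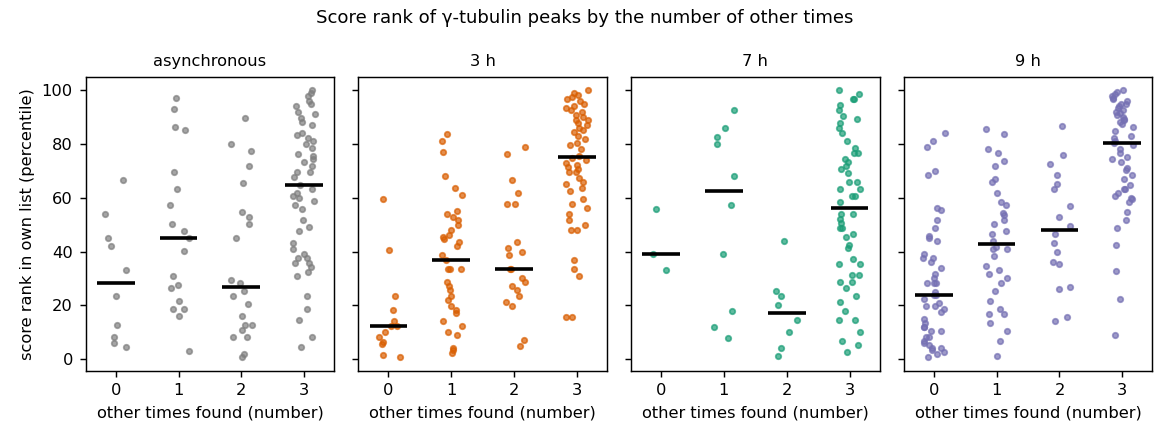
Points are single γ-tubulin peaks, plotted as the percentile of their score within their own list (y axis) against the number of other times at which the position was found (x axis), with a panel for each time and a bar at each median. Peaks found at all 3 other times have a median rank of 80.4 at 9 h, and those found at none 23.9.

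To count each position once, peaks of the 4 lists that shared at least 1 bp were merged into 172 regions. Of these, 48 (27.9%) were called at all 4 times, 20 at 3 times, 37 at 2 and 67 at 1. The same count gave 12 of 133 regions (9.02%) for PCNA, 8 of 171 (4.68%) for Mcm5 and 51 of 296 (17.2%) for FoxM1. The PCNA list at 7 h held 17 peaks, all of them mitochondrial, so no nuclear PCNA region could be called at all 4 times. The 12 PCNA regions thus all lay on the mitochondrial genome, which made up 1 region for γ-tubulin. The PCNA and γ-tubulin shares therefore do not compare like with like. The Mcm5 list at 7 h held 29 peaks with none on scaffolds or in pericentromeres. Few nuclear Mcm5 regions could therefore be called at all 4 times. The 48 constant regions held 245 of the 453 γ-tubulin peaks (54.1%). They comprised 28 pericentromeric regions, 11 arm regions, 8 scaffold regions and the mitochondrial genome.

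The regions missing at some times followed few patterns. For comparison, 106 of all 172 regions were pericentromeric, 34 lay on scaffolds and 31 on arms. There were 47 regions at 9 h alone, of which 39 were pericentromeric, and 30 at 3 h and 9 h only, of which 27 were pericentromeric. A further 16 regions were called at every time except 7 h, and 9 of these lay on scaffolds. By contrast 1 region was called at 7 h alone, 9 in asynchronous cells alone and 10 at 3 h alone. None was called in asynchronous cells and at 7 h only. The regions of asynchronous cells alone were 6 on arms and 3 on scaffolds, with none in a pericentromere.

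γ-Tubulin peaks crowded into few places. Peaks within 100 kb of each other formed 45 clusters, and the 10 largest held 339 peaks (74.8%). The cluster at chr2:92268991-92325766 held 5 peaks for asynchronous cells, 15 at 3 h, with 2 at 7 h and as many as 26 at 9 h, and that at chr16:46388212-46435532 held 1, 9, 1 and 18. Together they made up 5.88% of the asynchronous list, 19.5% of the 3 h list, 4% of the 7 h list and 28.8% of the 9 h list. These 2 clusters had the widest ranges of peak numbers among the 45. FoxM1 had 18, 53, 16 and 54 peaks in the same places, PCNA 22, 17, 0 and 33, and Mcm5 5, 10, 0 and 16, so all 4 antibodies had their highest count there at 9 h and their lowest at 7 h. Without the pericentromeres of chromosomes 2 and 16, the γ-tubulin lists held 96, 99, 72 and 109 peaks, and the shares found at 7 h were 55.6% of the 3 h peaks and 47.7% of the 9 h peaks.

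Some other clusters had similar numbers of peaks at all 4 times, though the bp covered were less alike. The pericentromere of chromosome 10 had 15, 10, 16 and 15 peaks at chr10:42360714-42409418 and 7, 7, 7 and 12 at chr10:42527886-42600538, in the order asynchronous, 3 h, 7 h and 9 h. The first of these covered 9304, 12584, 8566 and 14979 bp. Scaffold gl000226 carried 17, 18, 12 and 17 peaks, which covered 6195, 7460, 4338 and 11096 bp. At chr11:51579362-51591341 there were 6, 6, 5 and 7. Further clusters varied more. The pericentromeres of chromosome 19 (chr19:27731876-27740355, with 3, 6, 3 and 7 peaks) and of chromosome 7 (chr7:61967184-61976337, with 2, 5, 2 and 6) had more at 3 h and 9 h. Scaffold gl000220, which carries ribosomal RNA genes, varied in another order, with 11 peaks for asynchronous cells and 9 at 3 h, then 0 at 7 h and again 5 at 9 h. Mcm5 had 6, 12, 0 and 6 peaks on the same scaffold and FoxM1 11, 4, 4 and 3, whereas PCNA had none at any time. A list without a peak does not show that binding was absent, only that no enrichment was called.

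**Figure D4:**
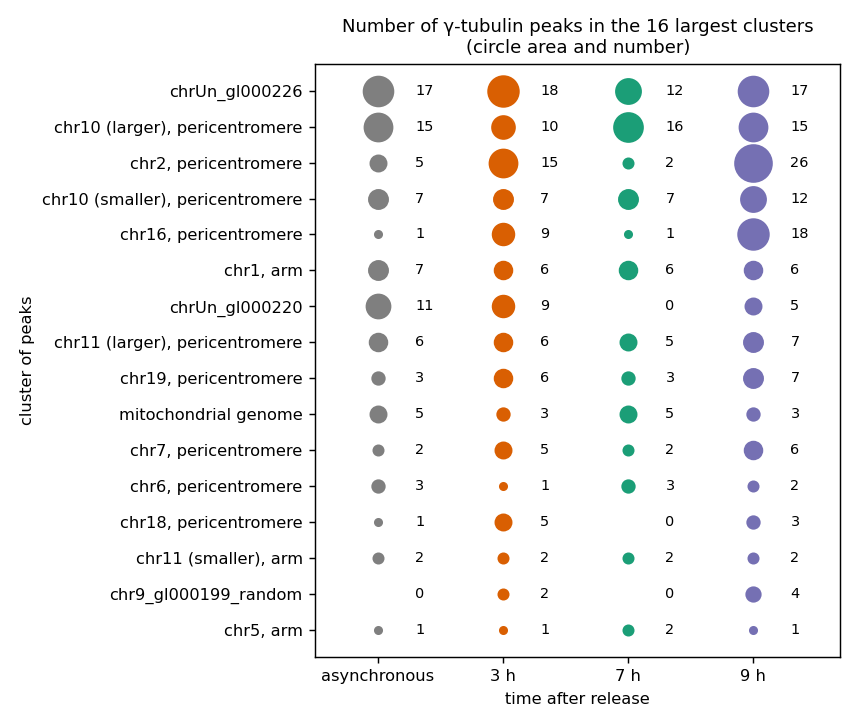
The 16 largest clusters of γ-tubulin peaks are shown in rows and the 4 times in columns, with the number of peaks printed and drawn as the area of a circle. The clusters of chromosomes 2 and 16 go from 2 and 1 peaks at 7 h to 26 and 18 at 9 h, while gl000220 has 0 at 7 h and chromosome 10 has peaks at every time.

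The strongest γ-tubulin region was the same at every time. It lay at chr1:121484017-121485485, beside the centromere of chromosome 1, with scores of 353, 721, 297 and 896, the highest of each list. In all, 6 regions held a peak among the 10 highest of every list. The 10 constant regions with the highest mean rank were all pericentromeric, 7 of them on chromosome 10 and 1 each on chromosomes 1, 7 and 19. The second, chr10:42598943-42600538, had ranks of 98.0, 99.2, 94.7 and 99.3, and the fourth, chr7:61968565-61969740, had 96.1, 97.6, 90.7 and 97.4. Ranks for chr19:27731876-27732807 were 89.7, 96.7, 92.7 and 96.7. Each of these 10 regions was also called in 10 of the 12 other U2OS lists, that is 3 of PCNA, 3 of Mcm5 and all 4 of FoxM1. They are therefore not particular to γ-tubulin. Over all merged regions of the 4 antibodies in U2OS, γ-tubulin was called in 142 of 340 (41.8%).

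Across the whole list, peak width changed little, with medians of 354.5 bp in asynchronous cells (333 to 419), 309 bp at 3 h (290 to 365), 340 bp at 7 h (304 to 454) and 369 bp at 9 h (326 to 433). These intervals overlap. A change appeared once the same positions were compared. The 47 nuclear regions called at all 4 times covered 33372 bp for asynchronous cells and 39571 bp at 3 h, then 29528 bp at 7 h and 44347 bp at 9 h. The bp covered were most at 9 h in 40 of the 47 regions and fewest at 7 h in 32. For matched peaks, the width at 9 h was divided by that of the partner at the other time. The median of this ratio was 1.60 against 7 h, with 46 of 49 peaks wider at 9 h. Against 3 h it was 1.17, with 82 of 89 wider at 9 h. From asynchronous cells to 7 h the median ratio was 0.94, with 50 of 60 peaks narrower at 7 h. A stronger or deeper list can give wider calls at the same site, and the part of this in the widths was not tested.

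The same regions were broken into more pieces where they were narrow. The 47 regions were covered by 51 peaks at 3 h and 50 at 9 h, but by 63 in asynchronous cells and 65 at 7 h. A region of 2956 bp on chromosome 10, chr10:42392143-42395098, was 1 peak at 3 h and at 9 h but 4 peaks in asynchronous cells and 5 at 7 h. Peak centres also lay closest within the pairs. The median shift between matched peaks was 12.75 bp from asynchronous cells to 7 h and 23.5 bp from 3 h to 9 h, and for the other pairs of times it lay between 30.5 and 44 bp.

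Score ranks within the 47 regions paired the times in the same way. Across regions, which share their libraries and are not independent, Spearman's rho between the ranks was 0.94 for 3 h and 9 h and 0.78 for asynchronous cells and 7 h. For the other 4 pairs it was between 0.63 and 0.71. The median absolute difference in rank was 5.02 percentile points between 3 h and 9 h and 22.5 between 7 h and 9 h. An example chosen after its values were seen is chr3:196625519-196625888 on the long arm of chromosome 3, with ranks of 14.7 for asynchronous cells and 2.67 for 7 h against 79.7 for 3 h and 85.0 for 9 h. Its width was nearly constant, at 357, 370, 340 and 365 bp in the order of the lists. Another such region, chr9:69710851-69711301, had ranks of 18.6, 67.5, 18 and 83.0. The position was called each time in both cases, but it stood low in 2 of the lists and high in the others.

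**Figure D5:**
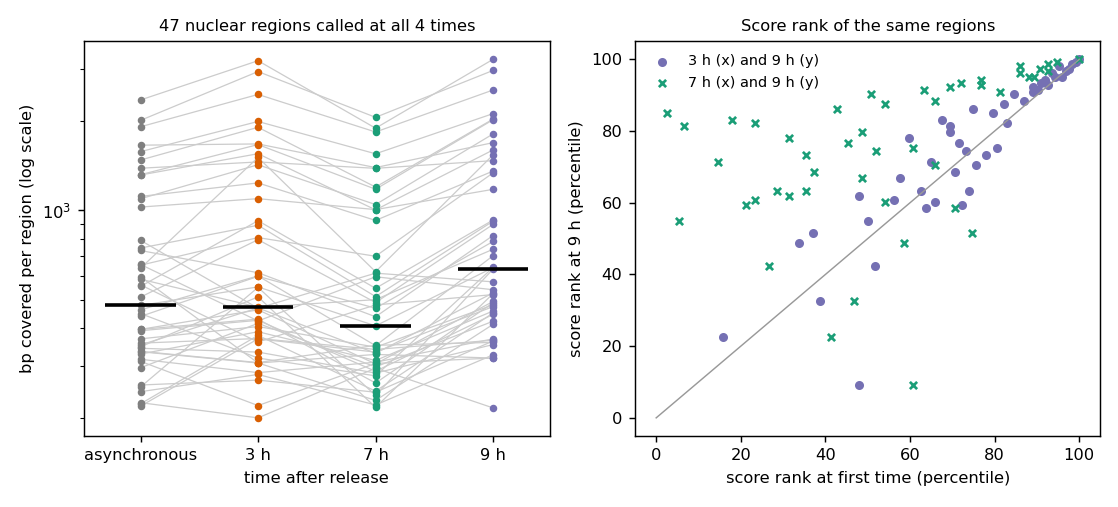
Left, the bp covered by γ-tubulin peaks (log scale) in each of the 47 nuclear regions called at all 4 times, with a bar at the median of each time and lines joining the same region. Right, the score rank of these regions at 9 h against that at 3 h (circles) or 7 h (crosses), where the circles lie near the line of equality (rho 0.94) and the crosses scatter (rho 0.63).

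Among regions that came and went, some scored high. At every time except 7 h, γ-tubulin was called at chr11:51584748-51585039, with ranks of 77.5 (asynchronous), 41.5 (3 h) and 72.5 (9 h). Next came chr10:42383253-42383874, with 25.5, 76.4 and 86.9. Both lie in clusters that were otherwise called at 7 h. On gl000220, positions 153721 to 154973 had ranks of 65.7, 57.7 and 39.9 and positions 110026 to 111008 had 72.1, 61.8 and 26.8, in each case lowest at 9 h. The fifth, chr16:46403405-46403876, went the other way, with 0.98, 78.9 and 75.8.

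Of the regions at 9 h alone, the highest rank was 84.3, at chr10:42380067-42380429, followed by 81.4 on scaffold gl000199 of chromosome 9 (positions 98840 to 99121) and 79.1 at chr19:27739317-27739623. All 3 lie in clusters that had further γ-tubulin peaks at 9 h. In asynchronous cells alone, the highest were chr12:77395575-77395776 with 66.7, positions 157439 to 157680 of gl000220 with 53.9, and chr5:79947150-79947411 with 45.1. At 3 h alone they were chrY:59362999-59363370 with 59.8, chr12:2629601-2629810 with 23.6 and positions 155890 to 156194 of gl000220 with 18.3. The region at 7 h alone was chr17:40766364-40766611, with a rank of 39.3, and further along the same arm chr17:40818240-40818439 was called at 3 h alone with a rank of 10.2.

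Most regions of a single time were not single-antibody calls. At the same time another antibody had a peak sharing at least 25% of both lengths in 50 of 67 such regions (74.6%, 62.5 to 84.5), compared with 361 of the 386 other γ-tubulin peaks (93.5%, 90.6 to 95.8). At 9 h, 39 of the 47 regions called only then had a FoxM1 peak (83.0%, 69.2 to 92.4), near the share among the other 9 h peaks, 74 of 106 (69.8%, 60.1 to 78.4). A PCNA peak was present in 17 of the 47 (36.2%, 22.7 to 51.5) against 82 of 106 (77.4%, 68.2 to 84.9), and an Mcm5 peak in 8 (17.0%, 7.65 to 30.8) against 87 of 106 (82.1%, 73.4 to 88.8). Regions of 9 h alone thus had PCNA and Mcm5 peaks in smaller shares than the rest of the list, with intervals that did not overlap. These regions were mostly weak calls, with a median rank of 23.9. The 9 h lists of PCNA and Mcm5 were also shorter, with 130 and 109 peaks against 244 for FoxM1. The part of score and list length in these shares was not tested. For asynchronous cells 4 of 9 had a partner of any antibody, and at 3 h 4 of 10. Across all U2OS lists, 7 of the 172 γ-tubulin regions had no overlap with any other antibody at any time. All 7 were called at 1 time, with 3 for asynchronous cells, another 3 for 3 h and 1 for 9 h, and 6 lay on arms. Their widths were between 200 and 353 bp and their highest rank was 33.3, at chr5:134261006-134261336. The positions found for γ-tubulin only were thus short and weak calls. Weak calls were not particular to them, since all 67 regions of a single time had a median rank of 22.5.

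Arm regions were few but partly constant. Of the 31, 11 were called at all 4 times and 16 at a single time. Close to the end of the short arm of chromosome 1, at chr1:564625-570123, lies a nuclear copy of part of the mitochondrial genome, and it carried 7, 6, 6 and 6 peaks in the order of the lists. This copy held 5 of the 11 constant arm regions. Its strongest, chr1:566080-566655, had ranks of 99.0, 80.5, 60.7 and 75.2, lowest at 7 h, while chr1:564625-565347 had 34.3, 37.0, 74.7 and 51.6, highest at 7 h. The third region of this copy taken by rank, chr1:569120-569716, had 57.4, 48.0, 31.3 and 61.8. Elsewhere on the arms, chr11:10530634-10531544 had ranks of 92.2, 59.8, 31.3 and 78.1 with 2 peaks at every time, and chr5:10126-11826, at the tip of the short arm, had 43.1, 74.0, 35.3 and 63.4. No order of the times was common to the arm regions. Over all 11 called at every time, the lowest rank was at 7 h in 6, in asynchronous cells in 3 and at 9 h in 2, and the highest was at 7 h in 3.

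The mitochondrial genome itself was covered almost whole at each time. The asynchronous and 7 h lists had 5 peaks on it and the 3 h and 9 h lists 3. In order of the lists these covered 97.1%, 98.7%, 97.0% and 99.2% of it. Its highest score ranks were 89.7, 87.8, 98.7 and 89.5, and its lowest were 27.5, 85.4, 18 and 80.4. At 7 h the highest mitochondrial peak thus stood just below the top of the list, while the lowest was among the weaker calls. For PCNA the mitochondrial peaks covered between 48.1% and 66.6%, for FoxM1 between 65.7% and 78.8%, and for Mcm5 between 91.8% and 98.8%. Reads from mitochondrial DNA and from its copy on chromosome 1 are near-identical in part and cannot be told apart in these lists.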

How the data were processed

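Nuclear chromatin of U2OS cells, cut with micrococcal nuclease, was precipitated using a mixture of rabbit polyclonal γ-tubulin antibodies on Dynabeads, and libraries were made with the ThruPLEX kit and sequenced as paired ends. The submitters' processing notes name Bowtie2 2.1.0, SAMtools 1.7-13, MACS2 and hg19. How the 2 samples of a group, the input, duplicates and repeats were treated was not stated. Each deposited list gives peak positions and a score by the authors, a whole number of unstated meaning, which was used only by rank within a list. Positions are on hg19, counted from 1. Read depth is unknown, and input samples were not used here. The score and positions were taken as deposited, with no filter.

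Overlap was at least 25% of both peaks, which follows the study's rule. Pericentromeres were placed within 2 Mb of the hg19 centromere gaps and of any heterochromatin gap next to them. The limits of these gaps, rounded, were entered from general knowledge of that build and not from a deposited file. Gene content was not analysed here, since the gene table at hand is on another build. Intervals are Clopper-Pearson for shares, Poisson for counts and order statistics for medians, at 95%. Peaks cluster and are not independent. Python 3.11.15, numpy 2.4.6, scipy 1.17.1 and matplotlib 3.10.9 were used, and the overlap code was checked on 100 simulated lists. The members, lists and comparisons were chosen with earlier results of these data known. Regions were named by rule as the 10 constant regions of highest mean rank, up to 3 regions per time called at that time alone, up to 5 called at every time but 7 h, and up to 5 arm regions called at 2 or more times, by the number of times and then by rank. Alternatives were overlap by 1 bp or 50%, peaks at or above the median score, lists of equal length, no mitochondrial peaks, chromosomes 1 to 22 with X, joining of peaks within 1000 bp, and pericentromeres of 1 or 5 Mb. Leaving out the pericentromeres of chromosomes 2 and 16 was chosen after the data were seen.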

Additional observations from a re-analysis of the deposited data

How the results depend on the processing

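Of 243 values recomputed for 40 results, 178 stayed within the interval or the 1.5-fold range of the reported value and 65 moved outside it. Of these results, the 4 differences in score rank could change sign, and 0 of their 16 values did. Merging peaks within 1000 bp left 47, 68, 39 and 80 peaks, found 75% of 3 h peaks at 9 h, and gave 28 regions at all 4 times and 40 at 1. With overlap by 1 bp, 86.3% of asynchronous peaks were found at 3 h and 96.0% of 7 h peaks at 9 h. Requiring 50% of both gave 59.8% of asynchronous peaks at 3 h, 37.4% of 3 h peaks at 7 h, 69.1% at 9 h and 50.7% of 7 h peaks at 9 h. Among the peaks scored at or above their list's median, 90.5% of 3 h peaks were found at 9 h, 23 regions were called at all 4 times and 29 at 1, of which 62.1% had another antibody. These peaks were pericentromeric in 63.5% of cases in asynchronous cells and 78.9% at 7 h, and had median widths of 474.5, 451, 499 and 516 bp. Lists of equal length found 65.3% of 3 h peaks at 7 h, left 36 regions at 1 time with 39.2% of regions at all 4, and had median widths of 416 bp at 3 h and 520 bp at 9 h. Leaving out the pericentromeres of chromosomes 2 and 16, chosen after the data were seen, left 44 regions at 1 time, 36.2% at all 4 and a pericentromeric share of 55.0% at 9 h. The causes were not tested, beyond the fewer peaks that several alternatives hold by construction. No paired analysis was possible because a single list stands for the 2 samples of a group, which also meant that leaving out a replicate could not be done. Depth is unknown and limits any reading of a position missing from a list.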

Other observations

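The likeness of asynchronous cells to 7 h and of 3 h to 9 h was also looked for in the other antibodies, after it had been seen for γ-tubulin, over nuclear regions called at both times of a pair. These lists come from the same cells as those of γ-tubulin, so they are not independent support. For FoxM1, Spearman's rho between score ranks was 0.85 for asynchronous cells and 7 h over 70 regions and 0.82 for 3 h and 9 h over 147 regions, and it lay between 0.49 and 0.73 for the other pairs. FoxM1 peaks at 9 h were found at 3 h in 66.4% of cases and in asynchronous cells in 20.9%. PCNA differed, with rho of 0.91 both for asynchronous cells and 9 h (80 regions) and for 3 h and 9 h (72 regions), and with no nuclear region at 7 h. Mcm5 had rho of 0.82 for 3 h and 9 h (78 regions), 0.76 for asynchronous cells and 9 h (65 regions) and 0.70 for asynchronous cells and 3 h (71 regions). For γ-tubulin on the same measure, rho was 0.90 for 3 h and 9 h over 96 regions and 0.83 for asynchronous cells and 7 h over 62 regions.

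Mcm5 had few nuclear regions at 7 h. Of these, 52.2% were also called in asynchronous cells (12 regions), 45.8% at 3 h (11 regions) and 37.5% at 9 h (9 regions), and rho between ranks was 0.19, 0.18 and -0.07. For γ-tubulin the corresponding shares were 92.5% of 67 regions, 98.2% of 56 and 94.5% of 55, with rho of 0.83, 0.69 and 0.63. The number of regions behind each rho differs, and the difference between the antibodies was not tested.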
